A study of Mus musculus with 6 samples.

Results

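Bhlha15, Etv1, Xbp1, Spdef, Creb3l1 and Sox10, transcription factor genes of secretory epithelium were followed through single cells of the mouse submandibular gland. They were chosen by gene symbol, and all 6 of 6 symbols were found among the 32285 genes of each of 3 libraries. The tested library held the whole Epcam+ epithelium of glands collected 90 days after stereotactic irradiation of the left gland with 30 Gy. A library of the Epcam+, Cd49f-high basal compartment and one of the whole Epcam+ epithelium came from untreated wild-type glands. Every library pooled 3 female C57BL/6J mice, an inbred strain given as 8 to 10 weeks old, and hashtag antibodies told the mice apart. The sort had removed dead cells and cells with Cd3, Cd16/Cd32, Cd31 or Cd45, and no group carried a transgene.

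Acini make most of the protein of saliva, intercalated ducts connect them to the larger ducts, and granular ducts of the rodent gland store kallikreins and growth factors. Bhlha15, also called MIST1, is a basic helix-loop-helix factor that enlarges the secretory apparatus of serous exocrine cells. Xbp1 is a leucine zipper factor of the unfolded protein response, and its messenger must be spliced by IRE1 before it encodes the active form. Creb3l1, also called OASIS, is held in the endoplasmic reticulum membrane until it is cleaved, and it serves secretory transport. Spdef is an ETS factor of mucous and goblet cells, and Etv1 is an ETS factor of the PEA3 group that acts downstream of receptor tyrosine kinases. Sox10 is an HMG-box factor of neural crest, of distal salivary progenitors and of myoepithelial cells. Reads here came from transcript 3' ends, so they count spliced and unspliced Xbp1 alike and say nothing of protein or cleavage.

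In GRCm38.p6 the genes lie on 6 chromosomes: Bhlha15 at chr5:144190286-144194441, Etv1 at chr12:38780082-38870483, Xbp1 at chr11:5520641-5525993, Spdef at chr17:27714446-27731003, Creb3l1 at chr2:91982328-92024170 and Sox10 at chr15:79154913-79164490. All are protein coding. RefSeq promoters of 300 bases, from 250 before to 50 after the start, were held for Bhlha15, Xbp1 and Spdef and, with 2 starts, for Etv1. The first 3 are shown because these genes differ in their order over classes: Bhlha15 was highest in acinar-like cells, Spdef in CPM in the Smgc-high cells described below, and Xbp1 was found in every class. Capitals mark ACGTG, the core that many leucine zipper factors read, and CCACG, a part of the endoplasmic reticulum stress element, on either strand. The windows are chr5:144190036-144190335 (plus strand), chr11:5520391-5520690 (plus strand) and chr17:27728902-27729201 (minus strand), the last at a start inside the gene's span.
Bhlha15: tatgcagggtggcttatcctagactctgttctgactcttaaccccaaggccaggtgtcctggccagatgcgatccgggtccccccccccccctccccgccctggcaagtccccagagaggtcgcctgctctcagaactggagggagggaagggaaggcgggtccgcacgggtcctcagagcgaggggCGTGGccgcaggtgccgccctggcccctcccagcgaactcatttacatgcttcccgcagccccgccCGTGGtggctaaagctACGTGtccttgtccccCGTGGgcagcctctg
Xbp1: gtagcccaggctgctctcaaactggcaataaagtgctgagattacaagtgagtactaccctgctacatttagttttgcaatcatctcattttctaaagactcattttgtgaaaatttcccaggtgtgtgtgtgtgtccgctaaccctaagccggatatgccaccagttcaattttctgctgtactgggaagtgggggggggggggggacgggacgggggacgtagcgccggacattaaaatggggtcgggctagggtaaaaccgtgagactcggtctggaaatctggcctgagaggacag
Spdef: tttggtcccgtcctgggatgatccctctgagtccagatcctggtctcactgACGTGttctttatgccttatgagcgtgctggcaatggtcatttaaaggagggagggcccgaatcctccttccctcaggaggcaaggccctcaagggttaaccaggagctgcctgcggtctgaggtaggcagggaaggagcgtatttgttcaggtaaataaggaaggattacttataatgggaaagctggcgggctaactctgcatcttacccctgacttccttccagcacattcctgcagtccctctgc
The Bhlha15 window held ACGTG 1 time and CCACG 3 times, with no overlap between them, and also CANNTG, the site of basic helix-loop-helix factors, 3 times. The Spdef window held ACGTG 1 time and no CCACG or CANNTG. The Xbp1 window held CANNTG 2 times and neither of the other motifs. CCGGAA, an ETS core, was in none of the windows of the 4 genes. Among 32851 promoters of the same length, 72.3% held CANNTG, 32.8% CCACG, 19.6% ACGTG and 14.9% CCGGAA. These matches describe the letters and were not tested as binding sites.

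After filtering, 2005 irradiated cells, 3068 cells of the basal sort and 2090 untreated cells of the whole epithelium had an assigned mouse. The mice held 6697925 to 26912362 UMIs (molecules counted) in the irradiated group, 9451505 to 17982439 in the basal sort and 11368354 to 14466948 in the untreated group. Median mitochondrial shares were 4.12% to 4.83% in irradiated mice, 4.51% to 5.15% in the basal sort and 9.02% to 9.98% in untreated mice. Group and library coincide, so effects of treatment, library and the age at collection cannot be told apart, and the p-values below weigh differences against the spread between mice within libraries. Irradiated and untreated libraries shared 8 barcodes, irradiated and basal 1, and basal and untreated 15. Clusters were rebuilt without the 6 genes and named from marker lists. In the whole epithelium, 8 acinar markers summed to 657 to 1804 CPM (UMIs of a gene per 1e6 UMIs) in irradiated mice, against 61339 to 83168 CPM in untreated mice, and none was at 0. The acinar-like class held 5 irradiated cells, all of mouse 2, and 109 untreated cells.

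One class needs its own description. A cluster of 83 untreated cells and 1 irradiated cell, with markers of both acinar and intercalated duct lists, was led by Smgc, a mucin-like submandibular gland protein, and is called Smgc-high here. Irradiated granular duct-like, ionocyte-like and intercalated duct-like cells mostly formed clusters apart from the untreated cells of the same name. Granular duct-like cells were 882 and 98 in 2 clusters of irradiated cells led by Reg3g and Ren1, against 624 in an untreated cluster led by G0s2. Ionocyte-like cells were 646 in a cluster led by Sult1c1, against 496 in an untreated cluster led by Ascl3. Of the intercalated duct-like cells, 108 of the irradiated ones lay in a cluster led by Cxcl2, against 596 untreated ones in a cluster led by Esp4.

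Among classes with at least 20 cells in every mouse, Bhlha15, Etv1 and Creb3l1 had their highest levels in acinar-like cells. Bhlha15 stood at 27.5, 30.4 and 26.0 CPM in acinar-like cells of the 3 untreated mice, or 28.0 ± 2.2 (mean ± SD, n = 3, as for all levels below). It was 13.6 ± 3.4 CPM in Smgc-high cells, 3.09 ± 0.76 in intercalated duct-like, 2.83 ± 1.11 in granular duct-like and 1.71 ± 1.57 in ionocyte-like cells. The acinar-like mice were above all mice of every other class, while the 3 duct classes overlapped. In the basal sort, 3 Bhlha15 UMIs were found in 2608 basal duct-like cells and none in 216 myoepithelial-like cells.

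**Figure D1:**
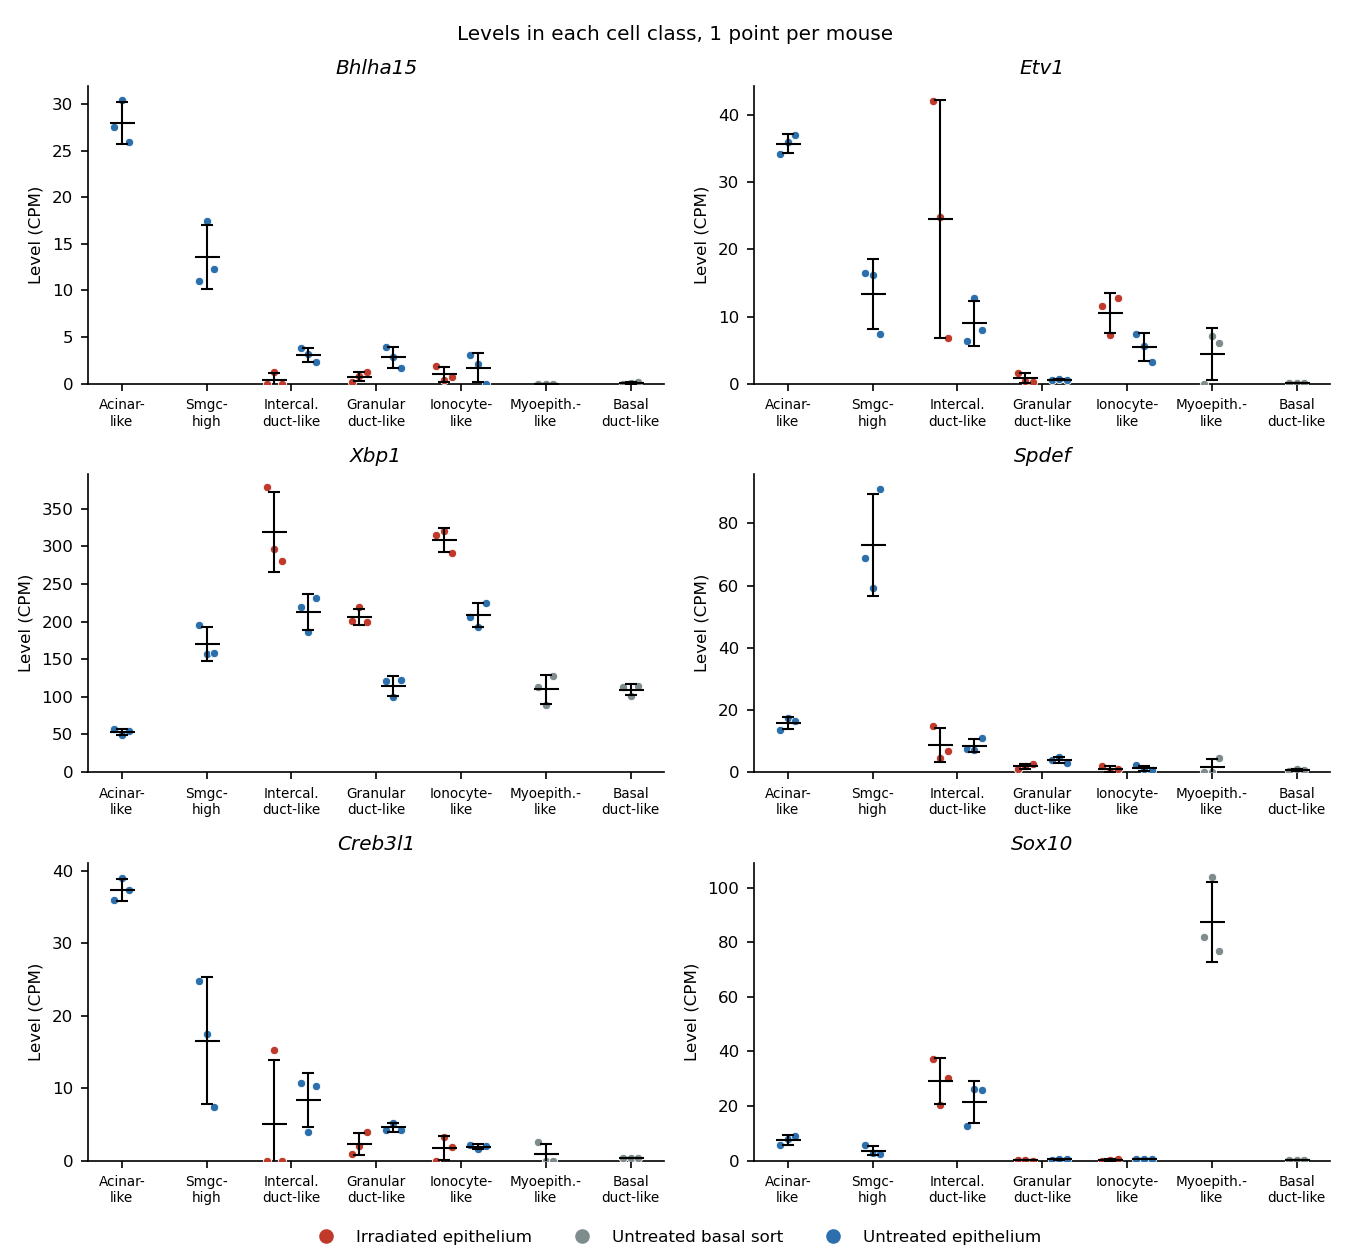
Level of each gene (CPM, linear axes from 0) by cell class; points are mice, bars are mean ± SD, cut at 0. Red marks irradiated, grey the basal sort and blue untreated whole epithelium; irradiated mice are shown for 3 duct classes and the basal sort for the last 2 classes. Bhlha15, Etv1 and Creb3l1 were highest in acinar-like cells among the untreated classes shown, Spdef in Smgc-high and Sox10 in myoepithelial-like cells, and Xbp1 was lowest in CPM in acinar-like cells.

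Etv1 was 34.2, 36.0 and 37.0 CPM in acinar-like cells of untreated mice, or 35.7 ± 1.4. Smgc-high cells followed with 13.4 ± 5.2 CPM, intercalated duct-like cells with 9.02 ± 3.34 and ionocyte-like cells with 5.46 ± 2.11, and these neighbours overlapped between mice. Granular duct-like cells were the lowest of the large classes at 0.603 ± 0.10 CPM, below every ionocyte-like value. Etv1 thus separated the 2 large duct classes that Bhlha15 did not.

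Creb3l1 was 35.9, 39.0 and 37.3 CPM in acinar-like cells, or 37.4 ± 1.5. It was 16.6 ± 8.7 CPM in Smgc-high, 8.33 ± 3.77 in intercalated duct-like, 4.57 ± 0.59 in granular duct-like and 1.90 ± 0.33 in ionocyte-like cells. Acinar-like mice lay above Smgc-high mice, and granular duct-like mice (4.18 to 5.24 CPM) above ionocyte-like mice (1.55 to 2.20 CPM), while Smgc-high and intercalated duct-like mice, and intercalated and granular duct-like mice, overlapped. A small class is not ranked here, and its levels were not below the acinar-like ones. The 17 untreated myoepithelial-like cells, of 2 mice, held 10 Creb3l1 UMIs, or 73.3 CPM (exact 95% Poisson interval 35.2 to 135), and 5 Etv1 UMIs, or 36.7 CPM (11.9 to 85.6). The 216 myoepithelial-like cells of the basal sort held 1.42 CPM (0.292 to 4.14) and 2.83 CPM (1.04 to 6.16).

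Acinar-like cells are deep, and this sets how often the genes were seen. Their median was 79501 UMIs per cell over the library, and a median of 5 of the 6 genes had a UMI in a cell, with at least 4 in 86.2% of cells. Bhlha15 had a UMI in 78.6% ± 7.7 of acinar-like cells, and in 10.1% ± 3.4 when every cell was thinned to 3000 UMIs. In basal duct-like cells of the same library, which should lack the gene, 0 of 53 cells had one, at a median of 13053 UMIs per cell, which allows a share of up to 5.66%. Free RNA was also checked with acinar saliva genes and with Smgc, whose UMIs in other classes would carry the factors along. The ratios were taken from acinar-like cells for the saliva genes and from Smgc-high cells for Smgc, and both parts were added. For Bhlha15 this gives 3.05 UMIs in untreated granular duct-like cells, against 33 found, and 2.00 in ionocyte-like cells, against 11 found. For Etv1 in granular duct-like cells it gives 3.08, against 7 found.

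In CPM Spdef did not follow the acinar order. Smgc-high cells of untreated mice held 68.8, 59.2 and 91.1 CPM, or 73.0 ± 16.4, against 13.6, 17.4 and 16.4 CPM in acinar-like cells of the same mice, or 15.8 ± 2.0. All 3 Smgc-high values were above all acinar-like ones. Spdef was then 8.53 ± 2.01 CPM in intercalated duct-like, 3.93 ± 1.08 in granular duct-like and 1.29 ± 0.80 in ionocyte-like cells, each without overlap with the next. Per cell the order of these 2 classes turns, with 1.29 ± 0.22 UMIs in Smgc-high and 1.68 ± 0.40 in acinar-like cells, and the mice overlapped.

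Sox10 in CPM was highest outside the secretory classes. In myoepithelial-like cells of the basal sort it was 81.8, 103.9 and 76.6 CPM, or 87.4 ± 14.5. Intercalated duct-like cells of untreated mice held 21.5 ± 7.7 CPM, acinar-like cells 7.47 ± 1.78 and Smgc-high cells 3.55 ± 1.70. Acinar-like and Smgc-high values overlapped by a narrow margin, and intercalated duct-like values (12.6 to 26.3 CPM) lay above both. Sox10 was 0.436 ± 0.159 CPM in granular duct-like and 0.536 ± 0.108 in ionocyte-like cells, and 5 UMIs were found in 2608 basal duct-like cells of the basal sort.

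Xbp1 was found in every class, and its order depended on the denominator. In CPM it was lowest in acinar-like cells, at 57.1, 48.8 and 54.6 CPM in the untreated mice (53.5 ± 4.2), below every mouse of the Smgc-high (170 ± 22), ionocyte-like (208 ± 16), intercalated duct-like (212 ± 24) and granular duct-like cells (114 ± 13). The 20 most abundant genes, led by Mucl2 with 59.9%, held all but 8.66% of acinar-like UMIs. Per 1e6 of the UMIs outside those 20 genes, Xbp1 was 620 ± 69 in acinar-like cells, above every mouse of the ionocyte-like (254 ± 18), intercalated duct-like (252 ± 25), Smgc-high (194 ± 25) and granular duct-like cells (136 ± 16). Per cell, acinar-like cells held 5.62 ± 0.47 Xbp1 UMIs, against 2.11 ± 0.27 in granular duct-like cells. The 20 genes were chosen in acinar-like cells, so that second scale raises acinar-like values most. Untreated mice kept 81.7% to 88.1% of UMIs outside them in the Smgc-high, intercalated duct-like, granular duct-like and ionocyte-like classes. Bhlha15, Etv1 and Creb3l1 were already highest in acinar-like cells in CPM and could only stay so. They were 324 ± 34, 413 ± 6 and 433 ± 20 per 1e6 UMIs. Spdef then was higher in acinar-like (182 ± 17) than in Smgc-high cells (83.1 ± 18.8) in every mouse, so its order turns with the scale. Sox10 was 85.8 ± 16.4 in acinar-like cells, against 25.7 ± 9.3 in intercalated duct-like cells. Myoepithelial-like cells of the basal sort held 90.9, 115.6 and 85.0, which overlapped the acinar-like 67.2, 91.7 and 98.4. Per cell, Sox10 was 0.84 ± 0.12 UMIs in those myoepithelial-like cells and 0.79 ± 0.21 in acinar-like cells.

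**Figure D2:**
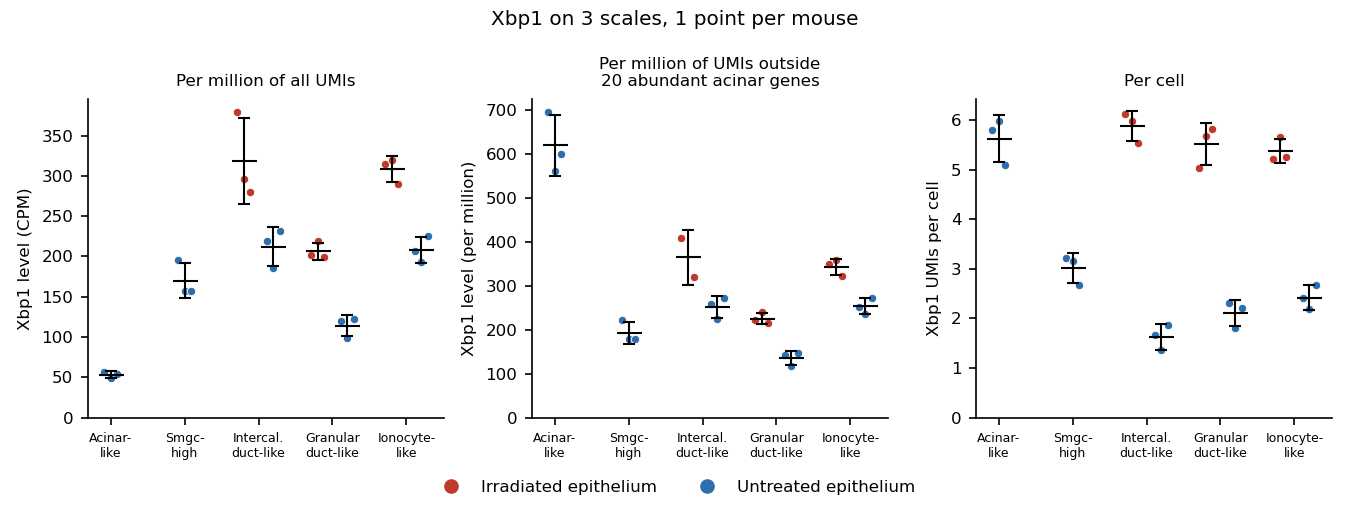
Xbp1 by class on 3 linear scales from 0: per 1e6 UMIs, per 1e6 UMIs outside the 20 most abundant acinar genes, and UMIs per cell; points are mice, bars mean ± SD, red irradiated and blue untreated. Acinar-like cells were lowest on the first scale and highest of the untreated classes on the other 2; intercalated duct-like cells of irradiated mice have 2 points on the second scale, where a mouse needed 20 cells.

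Of the untreated acinar-like barcodes that passed the quality filter, 81.0% had no hashtag call and are not in the shares below. Among kept cells, acinar-like cells supplied most molecules of 3 members. They were 5.22% ± 0.32 of kept untreated cells and, being deep, held 30.3% ± 2.4 of the UMIs of all genes, and they gave 79.8% of the Bhlha15, 78.6% of the Etv1 and 74.7% of the Creb3l1 UMIs of that group. For Spdef they gave 47.2% and Smgc-high cells 27.0%. For Sox10 they gave 42.4% and intercalated duct-like cells 47.8%, and in the basal sort 90.3% of Sox10 UMIs came from myoepithelial-like cells. Acinar-like cells gave 12.8% of Xbp1 UMIs, below their share of all UMIs and less than granular duct-like (27.2%), ionocyte-like (24.8%) and intercalated duct-like cells (20.5%). In irradiated epithelium granular duct-like cells gave 62.9% of the 35 Bhlha15 UMIs. As a mean over mice that share was 55.6% ± 28.0, close to their 61.4% ± 4.0 of the UMIs of all genes. Ionocyte-like cells gave 47.9% of the 213 Etv1 UMIs. As a mean over mice that share was 51.8% ± 28.0, against 23.6% ± 7.1 of all UMIs.

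**Figure D3:**
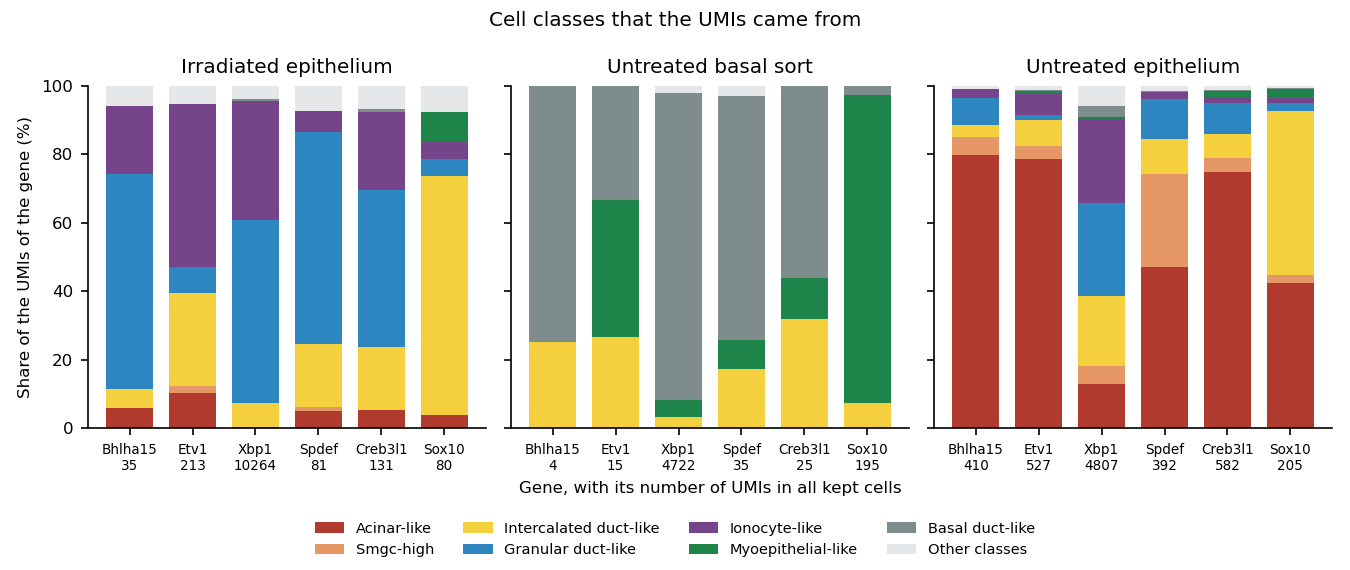
Share (%) of each gene's UMIs that came from each cell class, summed over the 3 mice of a group; the number under a gene is its UMI count. Acinar-like cells gave over 74% of Bhlha15, Etv1 and Creb3l1 UMIs in untreated epithelium; in irradiated epithelium duct classes gave most UMIs of all 6 genes.

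Over all kept cells, irradiated epithelium was compared with untreated epithelium to ask which of the factors differ late after the dose. Bhlha15, Etv1, Spdef, Creb3l1 and Sox10 fell and Xbp1 rose: 5 of 6 fell, where 19.4% of the 11881 genes tested fell and 20.4% rose, 39.7% in all. Their median log2 fold change was -2.28, against -0.03 over all genes tested. These sums mix classes, so fewer acinar-like or intercalated duct-like cells and less RNA per cell are not separated in them. Intercalated duct-like cells were 5.74% ± 2.14 of irradiated cells, against 28.8% ± 5.2 of untreated cells. The acinar-like class was 0.136% ± 0.236 of irradiated cells, against 5.22% ± 0.32 of untreated cells. Among all barcodes that passed the quality filter, with or without a hashtag call, the class was 0.342%, against 19.0%. TMM scaling set the fold changes 0.30 lower on the log2 scale than the plain CPM ratios of the same genes.

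Bhlha15 was 0.597, 0.780 and 0.991 CPM in irradiated mice, against 10.5, 12.4 and 8.97 CPM in untreated mice. The groups did not overlap, and the log2 fold change was -4.03 ± 0.24 (SE; edgeR quasi-likelihood test, adjusted p = 1.6e-05), a 16.3-fold difference. Creb3l1 was 0.746, 3.49 and 3.17 CPM, against 14.2, 16.6 and 14.9 CPM in untreated mice (log2 fold change -2.73 ± 0.30, edgeR adjusted p = 0.00021). Irradiated mouse 1 was low among its group, with 5 UMIs. Spdef was 1.94, 1.63 and 2.38 CPM, against 8.80, 11.1 and 10.9 CPM (-2.73 ± 0.21, edgeR adjusted p = 4.0e-05). Etv1 was 5.97, 4.87 and 4.16 CPM, against 12.7, 15.3 and 13.2 CPM (-1.79 ± 0.16, edgeR adjusted p = 8.1e-05). Sox10 was 2.99, 1.78 and 1.19 CPM, against 3.62, 5.67 and 6.95 CPM (-1.83 ± 0.34, edgeR adjusted p = 0.0033). For each of these genes every irradiated mouse was below every untreated mouse. Xbp1 was 216, 244 and 222 CPM in irradiated mice, against 136, 110 and 137 CPM in untreated mice, also without overlap (0.54 ± 0.09, edgeR adjusted p = 0.0022). With cells limited to 10% mitochondrial UMIs and at least 1000 genes, each fall was over 1.5 times larger as a linear fold change. On the log2 scale the values were -4.78 for Bhlha15, -3.34 for Creb3l1, -3.37 for Spdef, -2.43 for Etv1 and -2.65 for Sox10.

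**Figure D4:**
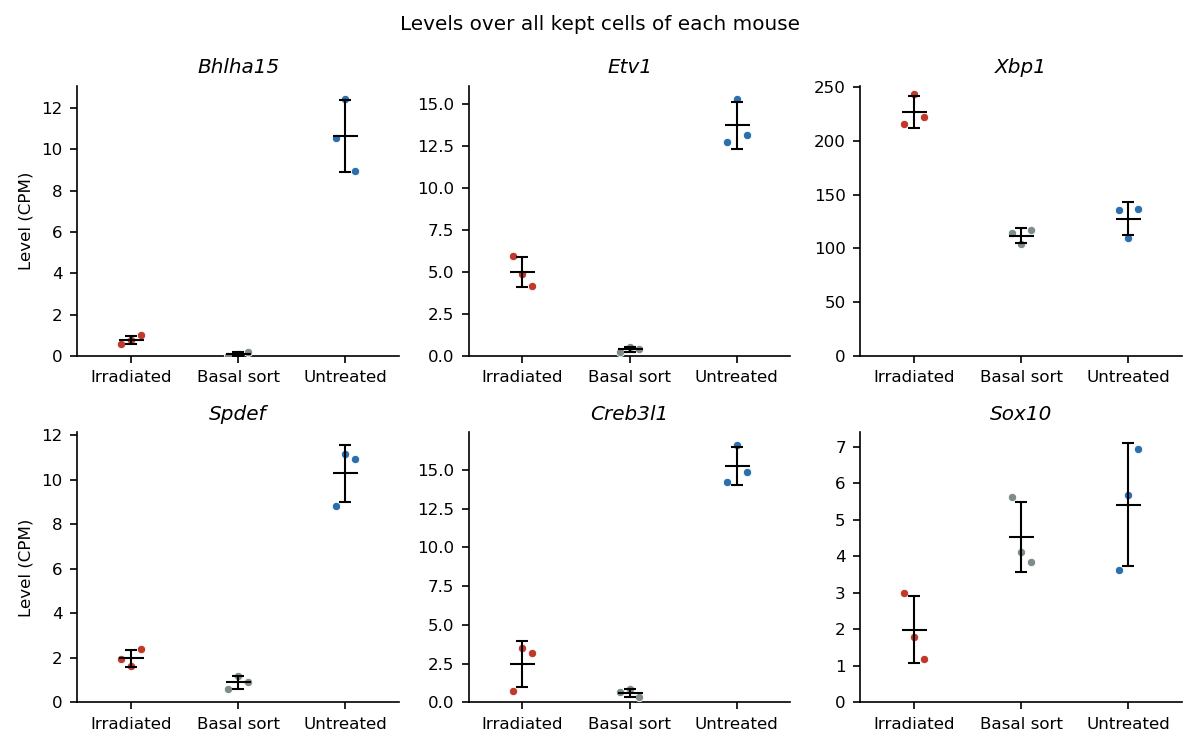
Level (CPM, linear axes from 0) of each gene over all kept cells of a mouse, in irradiated epithelium, the untreated basal sort and untreated whole epithelium; points are mice, bars mean ± SD. Irradiated mice sit below untreated mice for 5 genes and above them for Xbp1.

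With acinar-like and mixed cells left out of both groups, the changes were smaller for the acinar factors. These sums still mixed the duct classes, whose shares differed between the groups, so class shares and levels are not separated in them. Bhlha15 still fell, by -1.54 ± 0.39 on the log2 scale (edgeR adjusted p = 0.015), as did Spdef at -0.997 ± 0.26 (adjusted p = 0.016) and Sox10 at -1.26 ± 0.38 (adjusted p = 0.032). Creb3l1 at -0.78 ± 0.38 (adjusted p = 0.14) and Etv1 at 0.44 ± 0.23 (adjusted p = 0.17) did not pass, and the sign for Etv1 turned. Xbp1 rose by 0.65 ± 0.10 (adjusted p = 0.0015). The mixed cells left out there were the Smgc-high cells and 65 untreated cells with both granular duct and ionocyte markers. Another set kept those 65 cells and left out acinar-like, Smgc-high and intercalated duct-like cells. In that set Spdef was -0.90 ± 0.33 (edgeR adjusted p = 0.062), and Bhlha15 and Sox10 were too low to be tested.

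**Figure D5:**
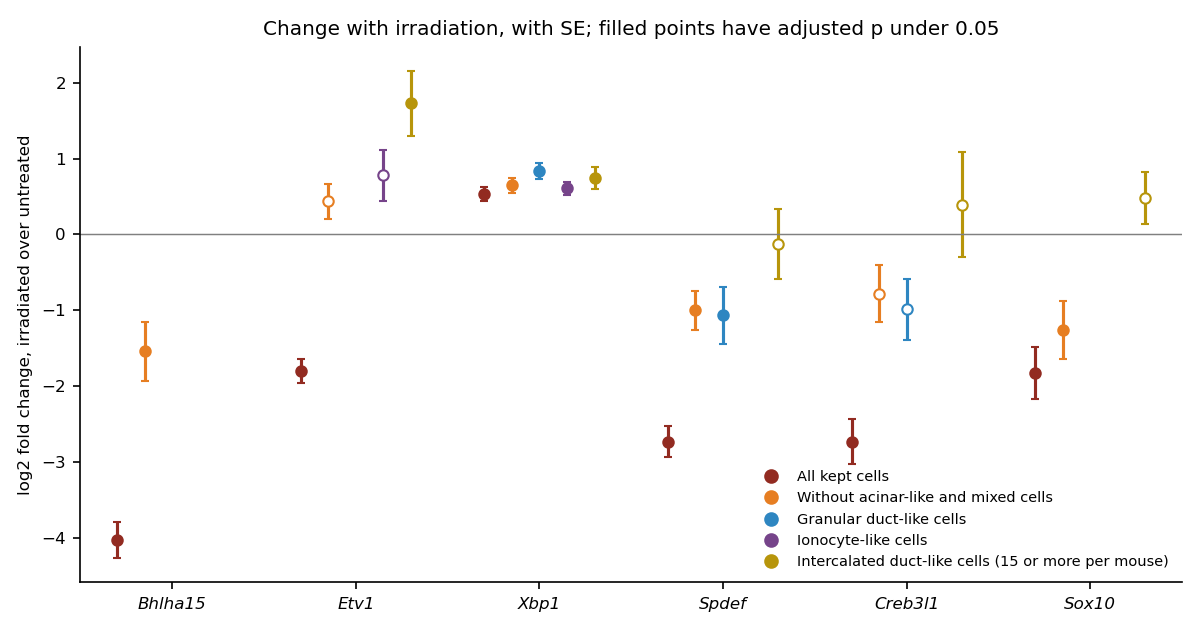
log2 fold change, irradiated over untreated, of each gene in 5 sets of cells, with SE; filled points passed an edgeR adjusted p of 0.05, and a missing point was below the filter on low counts. Bhlha15, Spdef, Creb3l1 and Etv1 changed most over all kept cells, while Xbp1 was positive in all 5 sets, from 0.54 to 0.84.

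Xbp1 was the member that rose in each class tested, while other classes had too few cells in a group for a test. Among those, basal duct-like cells held Xbp1 at 156 CPM pooled over 19 irradiated cells, against 221 CPM over 53 untreated cells. In granular duct-like cells it was 201, 219 and 200 CPM in irradiated mice, against 121, 99.1 and 123 CPM in untreated mice, and the log2 fold change was 0.84 ± 0.11 (edgeR adjusted p = 0.00011). In ionocyte-like cells it was 315, 320 and 291 CPM, against 206, 193 and 225 CPM (0.61 ± 0.09, edgeR adjusted p = 0.00017). Neither pair of groups overlapped. Of the 9526 genes tested in granular duct-like cells 38.7% passed, with 19.2% up, and of the 8907 in ionocyte-like cells 25.5% passed and 15% rose. At 3000 UMIs per cell, Xbp1 was seen in 48.1% ± 3.2 of irradiated granular duct-like cells, against 29.9% ± 5.7 of untreated ones, and in 55.6% ± 6.4 of irradiated ionocyte-like cells, against 41.0% ± 5.3. The unthinned shares were 95.02% against 79.0%, and 94.98% against 83.2%. Each of these 4 differences had an exact two-sided permutation p of 0.1, the smallest that 3 against 3 mice allow. The difference between the 2 classes in the log2 change, 0.27 (95% interval 0.0041 to 0.53), did not pass over the 10469 genes tested (edgeR interaction adjusted p = 0.18).

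Mitochondrial shares moved with the groups, as given above, and their part in the rise of Xbp1 was tested only by a stricter filter. Under that filter, of 10% mitochondrial UMIs and 1000 genes, the log2 change of Xbp1 was 0.64 in granular duct-like and 0.47 in ionocyte-like cells (edgeR adjusted p = 0.0076 and 0.036).

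The acinar factors were sparse in these classes, and most were below the filter. In granular duct-like cells 22 Bhlha15 UMIs were found in 982 irradiated cells, against 33 in 624 untreated cells, or 0.237, 0.849 and 1.23 CPM in irradiated mice, against 3.92, 2.86 and 1.71 CPM in untreated mice. The groups did not overlap, and with no filter on low counts the log2 fold change was -1.71 ± 0.48 (edgeR adjusted p = 0.0025 over 18023 genes). The share of granular duct-like cells with a Bhlha15 UMI at 3000 UMIs per cell was 0.170% ± 0.295, against 0.989% ± 1.349, and overlapped (exact two-sided permutation p = 0.7). Spdef was 0.949, 1.83 and 2.77 CPM in irradiated granular duct-like cells, against 3.92, 5.00 and 2.85 CPM (-1.07 ± 0.37, edgeR adjusted p = 0.040). This call was lost without irradiated mouse 1 (-0.88, edgeR adjusted p = 0.077) or 2 (-0.94, adjusted p = 0.15), without untreated mouse 1 (-1.09, adjusted p = 0.091) or 2 (-0.82, adjusted p = 0.20), under DESeq2 (-1.04, adjusted p = 0.083) and when the share of hashtag UMIs set the mouse (-1.32, adjusted p = 0.084). Creb3l1 was 0.949, 1.96 and 4.0 CPM, against 4.18, 5.24 and 4.28 CPM (-0.99 ± 0.41, edgeR adjusted p = 0.075). Its groups did not overlap, and it passed in 4 alternatives, among them without irradiated mouse 3 (-1.48, adjusted p = 0.0062). In granular duct-like cells 19.6% of genes tested fell.

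In ionocyte-like cells Etv1 was 11.5, 7.21 and 12.8 CPM in irradiated mice, against 7.46, 5.67 and 3.26 CPM in untreated mice. The ranges overlapped slightly and the log2 fold change of 0.78 ± 0.34 did not pass (edgeR adjusted p = 0.11). Without irradiated mouse 2 it was 1.13 (adjusted p = 0.047). The other 4 members had 4 to 30 UMIs each in the 646 irradiated cells and 3 to 11 in the 496 untreated cells.

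Intercalated duct-like cells were tested after the data were seen, since irradiated mouse 3 held 15 of them. The 5 markers of the class include Smgc. Over all kept cells, Smgc-high ones among them, the 5 summed to 43.6 to 346 CPM in irradiated mice, against 6961 to 11361 CPM in untreated mice. Pooled over cells of the class alone, Smgc was 0.440 CPM in irradiated epithelium, against 1208 CPM in untreated epithelium. The median depth of the class was 17461 UMIs per cell in irradiated epithelium, against 6433 in untreated epithelium. The acinar genes Car6, Scgb1b27 and Scgb2b27 together held 2221 CPM in irradiated cells of the class, against 4455 CPM in untreated ones. Irradiated granular duct-like and ionocyte-like cells held 799 and 25.3 CPM of these genes, and untreated ones 1460 and 2157 CPM. The part of these differences in the results below was not tested. Etv1 was 42.1, 24.8 and 6.76 CPM in irradiated mice, from 17, 39 and 2 UMIs, against 6.32, 12.7 and 7.99 CPM in untreated mice. The ranges overlapped through irradiated mouse 3, and the log2 fold change was 1.73 ± 0.42 (edgeR adjusted p = 0.013), where 16.1% of 8388 genes rose and 10.2% fell, 26.3% in all. The call was lost without irradiated mouse 2 (1.68, edgeR adjusted p = 0.078), untreated mouse 1 (1.497, adjusted p = 0.056) or untreated mouse 3 (1.61, adjusted p = 0.073), with the hashtag number as a replicate block (1.55, adjusted p = 0.053) and with the members kept among the clustering genes (1.23, adjusted p = 0.059). Xbp1 was 379, 296 and 280 CPM, against 219, 186 and 232 CPM, without overlap (0.75 ± 0.15, edgeR adjusted p = 0.0044). Sox10 was 37.2, 20.3 and 30.4 CPM, against 12.6, 26.3 and 25.7 CPM (0.48 ± 0.35, adjusted p = 0.34), in the class that held 56 of its 80 irradiated UMIs, and the groups overlapped. Creb3l1 had 24 UMIs in irradiated mouse 2 and none in the other two.

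The 5 irradiated acinar-like cells came from 1 mouse and allow no test. They held 22 Etv1 UMIs, or 96.9 CPM (exact 95% Poisson interval 60.7 to 147, counting error only), against 34.2 to 37.0 CPM in untreated mice. With 2 irradiated acinar-like barcodes that had no hashtag call added, Etv1 was 36.6 CPM (24.7 to 52.3). Bhlha15 had 2 UMIs in the 5 cells, or 8.81 CPM (1.07 to 31.8), against 26.0 to 30.4 CPM. Xbp1 was 172 CPM (122 to 235), against 48.8 to 57.1 CPM, in cells with a median of 11171 UMIs, against 79501 UMIs in untreated acinar-like cells.

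In granular duct-like cells the listed targets of Xbp1 rose at about the share of all genes. Of 28 listed endoplasmic reticulum targets of Xbp1, all tested, 5 rose and 2 fell in irradiated granular duct-like cells, where 19.2% of all genes rose and 19.6% fell, and the median log2 fold change was 0.21, against -0.03 over all genes tested. In ionocyte-like cells 9 of 28 rose and none fell by the edgeR test, where 15% of all genes rose and 10.5% fell, with a median of 0.24, against -0.02. Dnajb9, a co-chaperone of the lumen, rose in both, by 0.60 ± 0.16 in granular duct-like and 0.67 ± 0.14 in ionocyte-like cells. Pdia3, a disulfide isomerase, rose by 0.56 ± 0.13 in granular duct-like cells (457 CPM in irradiated mice, against 308 CPM in untreated mice). Sel1l, of the degradation machinery, fell there by -0.64 ± 0.15, and Ostc, of the oligosaccharyl transferase, rose by 0.84 ± 0.14 in ionocyte-like cells.

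Other unfolded protein sensors and factors moved both ways. In granular duct-like cells 4 of 9 tested rose and 1 fell, where 19.2% and 19.6% of all genes did. Chac1 and Trib3, targets of Atf4, rose by 3.60 ± 0.45 and 3.55 ± 0.35, with Chac1 at 52.1 CPM in irradiated mice, against 4.07 CPM in untreated mice. Eif2ak3, the kinase PERK, rose by 0.81 ± 0.15, and Atf3 fell by -1.99 ± 0.18 (695 CPM, against 2730 CPM). In ionocyte-like cells 3 of 8 rose and 1, Atf3, fell by -1.08 ± 0.16, where 15% of all genes rose and 10.5% fell.

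Of 8 listed Bhlha15 targets, 5 were tested over all kept cells, and 4 fell and none rose, where 19.4% of genes fell. These sums mix classes whose shares differed between the groups. Copz2, a coatomer subunit, fell by -1.98 ± 0.15, and Rab3d, a GTPase of secretory granules, fell by -1.48 ± 0.15 (7.97 CPM in irradiated mice, against 18.1 CPM). In granular duct-like cells none of the 3 tested passed, where 19.6% of all genes fell. In ionocyte-like cells 2 of 3 fell, where 10.5% of all genes fell. Among them was Ccpg1, a receptor of endoplasmic reticulum turnover, by -0.36 ± 0.11. Intercalated duct-like cells also had 2 of 3 fall, where 10.2% of all genes fell, with Ccpg1 at -1.52 ± 0.24 and Copz2 at -1.16 ± 0.32. Of the granule exocytosis machinery, 2 of 9 rose and 4 fell in granular duct-like cells, where 19.2% and 19.6% of all genes did. The syntaxin gene Stx3 rose by 1.28 ± 0.14 there and by 0.88 ± 0.15 in ionocyte-like cells, while Rab27a and Vamp2, which act in granule release, fell by -0.90 ± 0.25 and -0.52 ± 0.12 in granular duct-like cells.

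Of the CREB3 family and vesicle transport list, 2 of 11 rose and none fell in granular duct-like cells, the risers at about the 19.2% of all genes that rose there and none against the 19.6% that fell. Arf4, a Golgi GTPase, rose by 0.36 ± 0.10. Of the ETV and ERK feedback genes, 3 of 6 rose and 1 fell there. The phosphatase gene Dusp4 rose by 2.37 ± 0.27 and Spry2 by 1.63 ± 0.30, while Dusp6 fell by -1.24 ± 0.16. In intercalated duct-like cells 3 of 6 rose, where 16.1% of all genes rose, and Dusp6 rose by 3.20 ± 0.32 (125 CPM in irradiated mice, against 14.0 CPM) and Spry2 by 1.42 ± 0.44. Of 10 mucous genes associated with Spdef, 1 reached the filter over all kept cells and it did not pass. Of the SOX partners and targets, 1 of 4 rose and 1 fell over all kept cells, where 20.4% and 19.4% of all genes did, and Sox9, an HMG-box factor of ducts, rose by 0.44 ± 0.08.

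The basal sort was compared with the same untreated whole epithelium, so it shares its controls with the irradiated comparison. All 6 members fell, where 36.8% of 12885 genes fell and 72.8% changed in either direction, with a median of -4.63 against -0.03 over all genes tested. Bhlha15 had 4 UMIs in 3068 cells of the basal sort, or 0.105 ± 0.105 CPM, against 10.6 ± 1.7 CPM (-7.15 ± 0.42, edgeR adjusted p = 6.8e-07). Basal mouse 1 was at 0, and the value was -6.39 without it and -8.33 without basal mouse 3. Etv1 was 0.391 ± 0.155 CPM, against 13.8 ± 1.4 CPM (-5.72 ± 0.26), Creb3l1 0.621 ± 0.251 CPM, against 15.2 ± 1.2 CPM (-5.16 ± 0.23), and Spdef 0.895 ± 0.276 CPM, against 10.3 ± 1.3 CPM (-4.10 ± 0.24), each with an edgeR adjusted p of at most 6.8e-07. With acinar-like and mixed cells left out, these falls were smaller and still passed, at -4.56 for Bhlha15, -3.34 for Etv1, -3.06 for Creb3l1 and -2.28 for Spdef. Xbp1 was 112 ± 7 CPM, against 128 ± 15 CPM, with overlap (-0.70 ± 0.10, edgeR adjusted p = 0.00022). TMM scaling set fold changes 0.51 lower than plain CPM ratios here, which is most of the value for Xbp1 and Sox10.

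Sox10 was 5.62, 4.13 and 3.85 CPM in the basal sort, against 3.62, 5.67 and 6.95 CPM in the whole epithelium. The groups overlapped, and the log2 fold change of -0.75 ± 0.26 passed narrowly (edgeR adjusted p = 0.027). The call was lost without basal mouse 2 (-0.68, adjusted p = 0.066) or 3 (-0.66, adjusted p = 0.084), without untreated mouse 2 (-0.68, adjusted p = 0.072) or 3 (-0.56, adjusted p = 0.11), and with acinar-like and mixed cells left out (-0.12 ± 0.29, adjusted p = 0.72). Of the ETV and ERK feedback genes, 10 of 12 rose in the basal sort and none fell, where 36.0% of genes rose. Fgfr1, a growth factor receptor, rose by 4.24 ± 0.15 (104 CPM, against 3.81 CPM).

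Genes with the pattern most like each member were taken over 41 sums of a class in a mouse, by Pearson's r of log2(CPM + 1) among 7545 genes. The sums share libraries and, within a library, mice. Bhlha15 was nearest to Wfdc12 (r = 0.83), Lpo (0.80) and Scgb2b26 (0.78), and Creb3l1 to Ppp1r1b (0.80), Wfdc12 (0.79) and Agt (0.78). Spdef was nearest to Rab3d (0.81), Wfdc12 (0.79) and Serp1 (0.78). Etv1 had no neighbour above 0.67, the value for Pigr and Aqp5, with Agt at 0.66. Xbp1 was nearest to Prr13 (0.86), Cd24a (0.85) and Cib1 (0.85), and Sox10 to Ano1 (0.89), Gpc6 (0.88) and BC006965 (0.85). Wfdc12, Lpo and Scgb2b26 are secreted acinar proteins and led the acinar-like cluster, and Ano1, the apical chloride channel, was among the leading genes of the intercalated duct-like cluster.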

How the data were processed

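RNA was counted in 10x 3' v3 libraries, each with a hashtag library. The authors deposited unnormalised UMI counts, made with Cell Ranger 6.1.2 on mm10, per the submitters' processing notes. A barcode needed 500 genes and no more than 20% mitochondrial UMIs, and mice were assigned with HTODemux (Seurat 5.3.0, positive quantile 0.99, 5 starting clusters, a number chosen after seeing the hashtag counts). Hashtag doublets (181 irradiated, 231 basal and 150 untreated), barcodes without a call (295, 998 and 1778) and the highest Scrublet scores, in the number that the hashtag doublets imply (148, 121 and 75) were left out. Cells were clustered in scanpy 1.11.5 with no batch correction, on 2000 variable genes without the members, with 30 components, 15 neighbours and Leiden resolution 1. A cluster took its name from a list with at least 60% and at least 3 markers raised 1.5-fold in at least 10% of its cells. The names are rebuilt here, and with the members kept among the clustering genes 97.3% of cells had the same class.

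UMIs were summed per mouse (n = 3 per group) over all kept cells and over classes with at least 20 cells in every mouse. The sums were tested with edgeR 4.0.16 (its default low-count filter filterByExpr, TMM factors and the quasi-likelihood test), with p-values adjusted by Benjamini-Hochberg over all genes tested and a threshold of 0.05. SE is the absolute log2 fold change over the root of F. On simulated counts 79.3%, 84.9% and 74.4% of 2-fold changes and 100% of 4-fold changes were recovered over all cells (11895 genes), granular duct-like cells (9500) and ionocyte-like cells (8837). The simulation gave every gene the same fixed dispersion and held rises only, so these rates do not give the power for the sparse members. Shares were compared by exact permutation over mice. Levels are CPM. Intervals and floors (3 counts) cover counting error only. Alternatives were DESeq2 1.42.0, no filter, leaving out each mouse, a replicate block, assignment by hashtag share (70%, 10 UMIs), a stricter cell filter and other cell sets.

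Members and lists were chosen with earlier results of these data known. The text names all members, up to 4 genes past the threshold per list (largest change, mean of at least 10 CPM), and the 3 genes most like each member. Gene positions and promoters are from RefSeq (GRCm38.p6), where 4 of 6 members had a promoter entry.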

Additional observations from a re-analysis of the deposited data

Results flagged for a closer look

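Barcodes without a hashtag call belong to no mouse and entered no comparison, and the members were well measured in them. Of the barcodes that passed the quality filter in untreated epithelium, 778 (19.0% of 4093) were acinar-like, and 630 of these (81.0%) had no call, against 24.6% of granular duct-like barcodes. These 630 held Bhlha15 at 28.0 CPM, Etv1 at 31.1, Xbp1 at 56.8, Spdef at 15.4, Creb3l1 at 39.1 and Sox10 at 5.93 CPM, against pooled values of 28.3, 35.8, 53.0, 15.98, 37.6 and 7.52 CPM in the 109 kept acinar-like cells. Among 502 Smgc-high barcodes 392 (78.1%) had no call. They held Bhlha15 at 22.9 CPM, Etv1 at 12, Xbp1 at 186, Spdef at 84.7 and Creb3l1 at 9.65 CPM, against 14.5, 13.9, 167, 70.1 and 16.5 CPM in the 83 kept cells. Sox10 had 0 UMIs among 5906132 in these 392 barcodes, which allows up to 0.508 CPM, against 5 UMIs or 3.31 CPM (exact 95% Poisson interval 1.07 to 7.71) in the kept Smgc-high cells. The same library's acinar-like barcodes without a call held 343 Sox10 UMIs. Acinar-like cells were thus 5.22% ± 0.32 of the kept untreated cells, the ones in the all-cell sums (SD, n = 3). In irradiated epithelium 9 barcodes that passed the quality filter were acinar-like, and 2 of them had no call.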

How the results depend on the processing

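Over all kept cells, 71 of the 76 alternative values for irradiation kept their direction and side of the threshold, as did 26 of 36 in granular duct-like, 21 of 22 in ionocyte-like and 44 of 53 in intercalated duct-like cells, and 66 of 72 for the basal sort. Xbp1 kept its call in all alternatives run. Etv1 over all kept cells turned to 0.44 without acinar-like and mixed cells. It was 0.46 without acinar-like, Smgc-high and intercalated duct-like cells. In intercalated duct-like cells Spdef (-0.13) turned to 0.095 with the replicate block and ranged from -0.55 to 0.47 without 1 mouse (0.47 without irradiated mouse 2), and Creb3l1 (0.39) turned to -0.11 under DESeq2 and ranged from -6.20 to 0.77 without 1 mouse, lowest without irradiated mouse 2, which held all 24 irradiated UMIs. Etv1 in that class lost its call with the block (1.55, adjusted p = 0.053), as did Sox10 in the basal sort (-0.73, adjusted p = 0.062), while Creb3l1 in granular duct-like cells gained one (-1.06, adjusted p = 0.027). Creb3l1 there also passed with no filter (-0.92, adjusted p = 0.027) and with the members kept among the clustering genes (-1.02, adjusted p = 0.046), and ranged from -1.48 to -0.71 without 1 mouse. Hashtag numbers do not pair the mice: same-numbered irradiated and untreated mice correlated at -0.18, -0.12 and -0.19 and basal and untreated ones at -0.04, -0.08 and -0.03. With the block 3830, 3669 and 2219 genes were called for irradiation in all kept, granular duct-like and ionocyte-like cells, against 4719, 3691 and 2270 without it. With mice assigned by hashtag share the counts were 2767, 2082, 1227 and, in intercalated duct-like cells, 1054 against 2209. Of the barcodes that HTODemux gave to a single mouse, 1993 of 2153 irradiated and 811 of 2165 untreated ones met that share rule. This setting thus also changed which cells were summed. The stricter cell filter gave 2342 in granular duct-like and 934 in ionocyte-like cells, and DESeq2 1417 in ionocyte-like cells. In the basal sort that filter moved Bhlha15 to -7.75, Etv1 to -6.37, Spdef to -4.85, Creb3l1 to -5.79 and Sox10 to -1.52, and assignment by hashtag share moved Bhlha15 to -8.11. Without 1 mouse, counts ranged from 3423 to 4577 over all kept cells, 2832 to 3797 in granular duct-like, 1485 to 2059 in ionocyte-like (lowest without irradiated mouse 2), 1399 to 2441 in intercalated duct-like (lowest without untreated mouse 3) and 8858 to 9573 in the basal sort. The cause of these moves was not tested. In duct cells most acinar factors had under 60 UMIs a group, and counting error limits their values there.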
